A study of Arabidopsis thaliana with 4 samples.

Results

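Alcohol dehydrogenase (ADH) and ADH-like genes were followed across root RNA of 4 Arabidopsis thaliana genotypes. The genes were chosen by locus: ADH1 (AT1G77120), the class III enzyme gene HOT5 (AT5G43940) and 7 ADH-like genes, 9 in all. A gene was read where a row of the array was annotated with that gene alone. The 7 ADH-like genes had such a row, 1 each, out of 16548 genes with a named row. ADH1 and HOT5 had none and were not analysed here, so all values below are those of the ADH-like genes. AT1G64710 was put on the list because its signal in these same arrays was at least 2-fold lower than WT in every line. Its values are therefore a description and support nothing.

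Each genotype was measured on 1 Affymetrix Arabidopsis Gene 1.0 ST array, 4 arrays in all. The 3 tested genotypes carry the labels CEPD1ox, CEPD2ox and CEPDL2ox, for plants that overexpress 1 gene of the CEPD family each, and were compared with wild type of the Columbia accession (WT). All plants were moved after 7 d to agar medium replete in nitrogen (NH4Cl and KNO3 at 10 mM each) and were harvested at 14 d. CEPD proteins are small glutaredoxin-like polypeptides that carry nitrogen demand signals from shoot to root. The labels do not give the promoter behind each transgene, the number of independent lines or how many plants were pooled. The labels give no replicate, so there is no spread within a genotype, no test and no p-value. A difference below is the gap between 2 single arrays.

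Alcohol dehydrogenases are zinc enzymes that interconvert alcohols and aldehydes with NAD(H). In plant roots short of oxygen, pyruvate decarboxylase makes acetaldehyde and ADH1 reduces it to ethanol, which regenerates NAD+ for glycolysis. The class III enzyme HOT5 acts on the glutathione adducts of formaldehyde and nitric oxide. The ADH-like genes encode proteins of the same zinc-dependent family, and for most of them the substrate is not known. Related enzymes of the same superfamily, the cinnamyl alcohol dehydrogenases, work in lignin formation.

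The arrays were alike as a whole, with Pearson's r between 0.983 and 0.984 over all rows of the array, which are not independent replicates. Of the overexpressed genes, CEPD2 (AT2G47880) had a log2 signal of 9.22 in CEPD2ox against 1.41 in WT, a level near background, and AT3G62960, taken as CEPDL2, was 4.11-fold higher in CEPDL2ox. CEPD1 (AT1G06830) had a log2 signal of 3.04 on the array labelled CEPD1ox against 2.66 in WT, a difference of 0.38 from a WT signal near background. Its log2 signals were 2.19 in CEPD2ox and 2.34 in CEPDL2ox, so its overexpression on the array labelled CEPD1ox was not shown. Each value from that array carries this limit. CEPH (AT4G32950), the gene of a type 2C protein phosphatase, was 3.44-fold above WT there, and 4.62- and 14.3-fold above it in CEPD2ox and CEPDL2ox. Root hair expansin genes EXPA7 and EXPA18, the 2 of 10 root markers with a named row, had log2 signals between 6.58 and 8.63 on the 4 arrays. Of 10 markers of green shoot tissue, 2 had a named row and are given below. A log2 signal under 2.78, the 25th percentile of all gene values, is treated here as near background.

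Of the 7 ADH-like genes, 1 was at least 2-fold lower than WT in all 3 lines, and none was 2-fold higher in any line. That gene was AT1G64710. Over all 13232 genes kept by the filter, 0.068% were 2-fold lower in all 3 lines. Per line, 0.476% were 2-fold lower on the array labelled CEPD1ox, 0.393% for CEPD2ox and 0.491% for CEPDL2ox. Since AT1G64710 was chosen for this difference, nothing is read from these shares. The shares 2-fold higher were 0.733%, 0.506% and 0.771% in the same order of lines. The filter kept genes whose highest signal on the 4 arrays reached 2.78, and all 7 genes passed it.

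**Figure D1:**
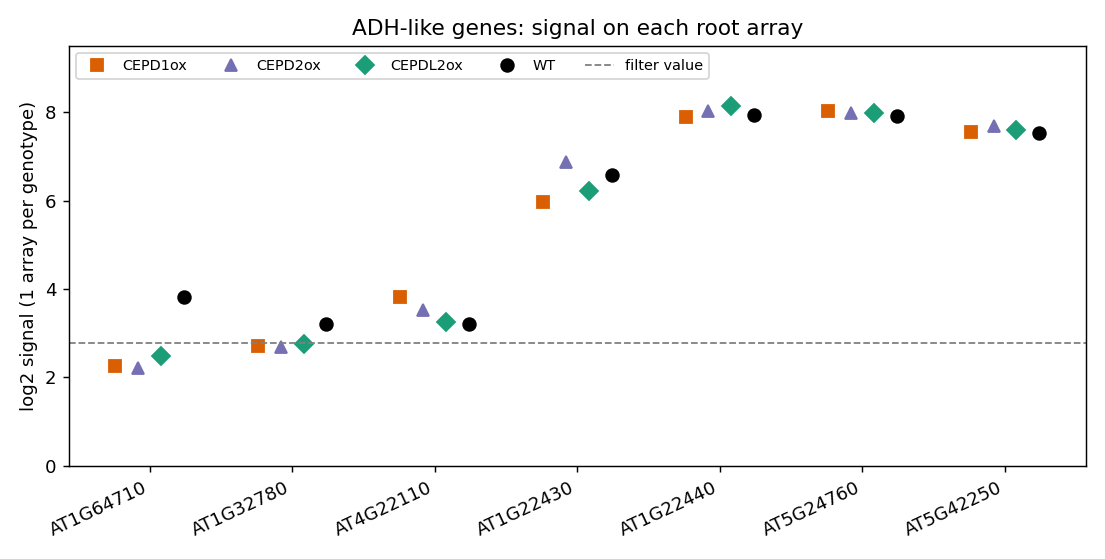
Log2 signal (y axis) of the 7 ADH-like genes (x axis) on the arrays labelled CEPD1ox, CEPD2ox, CEPDL2ox and WT, 1 point per array, with the filter value of 2.78 as a dashed line. AT1G64710 and AT1G32780 lie above the line in WT alone, and the signals of different genes are not comparable with each other.

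AT1G64710 had log2 signals of 2.27 on the array labelled CEPD1ox, 2.21 for CEPD2ox and 2.48 for CEPDL2ox, against 3.82 in WT. The 3 line arrays lay within 0.26 of each other and all below WT. These are log2 ratios to WT of -1.55, -1.60 and -1.34, with a mean of -1.50 ± 0.14 (SD over the 3 lines). Here and below, this SD is the spread of the line signals only, since the lines share 1 WT array whose own error it leaves out. WT was thus 2.92-fold above the array labelled CEPD1ox, 3.03-fold above CEPD2ox and 2.53-fold above CEPDL2ox. All 3 line signals lay under 2.78, so the gene passed the filter through the WT array alone, where it is high, and the size of the difference is limited by background. In bulk root tissue, fewer cells that hold the transcript and less transcript per cell cannot be told apart.

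AT1G64710 lies in the low-signal range, where large differences were more frequent among all genes. Among kept genes with a mean signal below 4, 0.186% were 2-fold lower in all 3 lines, against 0.0322% of those at 6 or above.

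PRK, the phosphoribulokinase of the Calvin cycle and a marker of green tissue, was lower in all 3 lines too. Its log2 signals were 3.27 on the array labelled CEPD1ox, 2.94 for CEPD2ox and 2.47 for CEPDL2ox, against 4.58 in WT. The PRK signal in CEPDL2ox lay under the filter value. RCA, the Rubisco activase, was at 5.73, 6.14 and 5.66 in the same lines, against 6.31 in WT. Both measured green markers of the 10 were therefore below WT on every line array, as were 24.2% of all kept genes. Their summed linear signal was 62.9, 78.3 and 56.2 in the lines, against 103 in WT. The other 8 were not analysed here, and the part of green tissue in the AT1G64710 difference was not tested.

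The kept genes whose 4 signals, each centred on its own mean, lay nearest to AT1G64710 were ranked by Euclidean distance over the 4 arrays. The nearest was AT3G15356, a legume lectin-like gene, at a distance of 0.22. It had log2 signals of 3.42, 3.66 and 3.75 in the lines, in the order CEPD1ox, CEPD2ox and CEPDL2ox, against 5.20 in WT. All 4 of these signals lay above the filter value. AT5G52090, AT4G14358, AT1G59865 and AT2G01610, the last a gene of the pectin methylesterase inhibitor superfamily, followed at distances between 0.38 and 0.43. AT2G01610, whose signals were all well above the filter value, had 5.27, 4.99 and 5.57 in the lines, against 6.36 in WT. AT5G52090 and AT4G14358 lay under the filter value on all 3 line arrays. The nearest other ADH-like gene was AT1G32780, at rank 144 of 13231 and a distance of 0.87. The ranking used the same 4 signals by which AT1G64710 was chosen, and AT1G32780 passed the filter through WT alone. Nothing is therefore read from these ranks.

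AT1G32780 had the smallest spread between lines after AT5G24760, and lay below WT in each. Its log2 signals were 2.72 on the array labelled CEPD1ox, 2.69 for CEPD2ox and 2.75 for CEPDL2ox, against 3.22 in WT. The log2 ratios were -0.51, -0.54 and -0.48, with a mean of -0.51 ± 0.03 (SD over the 3 lines). WT was 1.42-fold above the lines by this mean, short of 2-fold in every line. Like AT1G64710, it passed the filter through WT alone, and its line signals lay just under the filter value. Among 2036 other kept genes of like signal, 56.4% had a range over the 4 arrays as large as its 0.54 or larger.

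**Figure D2:**
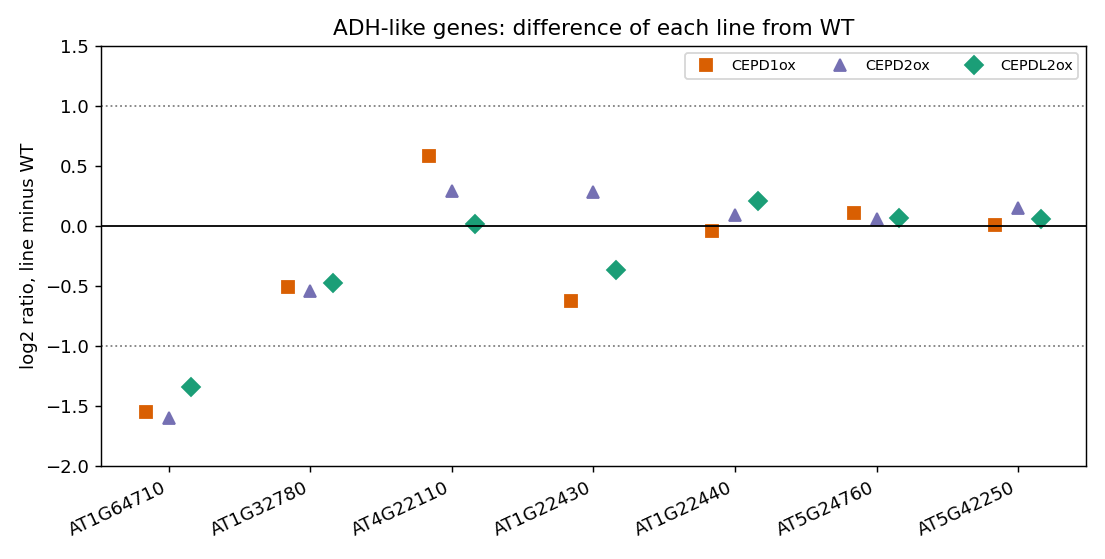
Log2 ratio of each line to WT (y axis) for the 7 ADH-like genes (x axis), 1 point per line, with dotted lines at 2-fold. AT1G64710 lies beyond -1 in all 3 lines (-1.55, -1.60 and -1.34), AT1G22430 lies on both sides of 0, and AT5G24760 and AT5G42250 stay between 0.01 and 0.15.

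AT4G22110 was the ADH-like gene with the highest mean ratio. Its log2 signals were 3.81 on the array labelled CEPD1ox, 3.52 for CEPD2ox and 3.25 for CEPDL2ox, against 3.22 in WT. The array labelled CEPD1ox stood highest, while CEPDL2ox lay within 0.02 of WT. The mean log2 ratio was 0.30 ± 0.28 (SD over the 3 lines), a spread close to the difference itself. Of 1877 kept genes of like signal, 42.8% had a range over the 4 arrays of at least its 0.58.

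AT1G22430 differed in direction between the lines. Its log2 signals were 5.96 on the array labelled CEPD1ox, 6.87 for CEPD2ox and 6.22 for CEPDL2ox, against 6.59 in WT. CEPD2ox was thus the highest array and the one labelled CEPD1ox the lowest, with WT between them. The log2 ratios to WT were -0.63, 0.28 and -0.37, with a mean of -0.24 ± 0.47 (SD over the 3 lines). This mean was -0.04 without the array labelled CEPD1ox and -0.50 without CEPD2ox. CEPD2ox was 1.88-fold above the array labelled CEPD1ox, a log2 difference of 0.91 that does not involve the WT array. CEPDL2ox differed from CEPD2ox by -0.65. All 4 signals were far above the filter value. Among 2240 other kept genes with a mean signal within 0.5 of its own, 1.38% had a range over the 4 arrays at least as large, and the median range was 0.28. With 1 array per line this difference between lines was not tested.

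AT1G22440 is the next protein-coding gene to AT1G22430 by the order of loci in TAIR10.1, and did not share its pattern. Its log2 signals were 7.89 on the array labelled CEPD1ox, 8.03 for CEPD2ox and 8.14 for CEPDL2ox, against 7.93 in WT. Here CEPDL2ox was highest and the array labelled CEPD1ox lowest, though it lay 0.01 above WT once the arrays were shifted to the same median, over a range of 0.24, against a range of 0.91 in AT1G22430. The mean log2 ratio was 0.09 ± 0.12 (SD over the 3 lines), and 36.6% of 1572 kept genes of like signal had as large a range. Both belong to the same protein family, and probes shared between members of the family were not examined.

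AT5G24760 and AT5G42250 varied least. AT5G24760 had log2 signals of 8.02 on the array labelled CEPD1ox, 7.98 for CEPD2ox and 7.99 for CEPDL2ox, against 7.92 in WT. AT5G42250 had 7.55, 7.69 and 7.60 in the same lines, against 7.54 in WT. Every line lay above WT in both genes, by at most 0.15 on the log2 scale. Ranges as large were found in 84.7% of kept genes of like signal for AT5G24760 and in 74.4% for AT5G42250, so most genes of like signal varied as much.

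Counted by sign alone, 2 of the 7 genes lay below WT in all 3 lines and 3 lay above it, of which AT4G22110 in CEPDL2ox turned to just below WT when the arrays were shifted to the same median. Over all kept genes, 24.2% lay below WT in all 3 lines and 24.3% above. AT1G64710 was chosen for its lower signal in every line, and AT1G32780 passed the filter through WT alone. Nothing is therefore read from the count of 2 genes below WT. The median of the mean log2 ratio was 0.07 over the 7 genes and 0.00 over all kept genes. At 1.5-fold, 2 genes were lower on the array labelled CEPD1ox, where 2.99% of all kept genes were. These were AT1G64710 and AT1G22430. In CEPD2ox and CEPDL2ox AT1G64710 alone was lower at that size, beside 2.63% and 3.35% of all kept genes. The calls of AT1G64710 were fixed in advance by how it was chosen, so nothing is read from them.

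**Figure D3:**
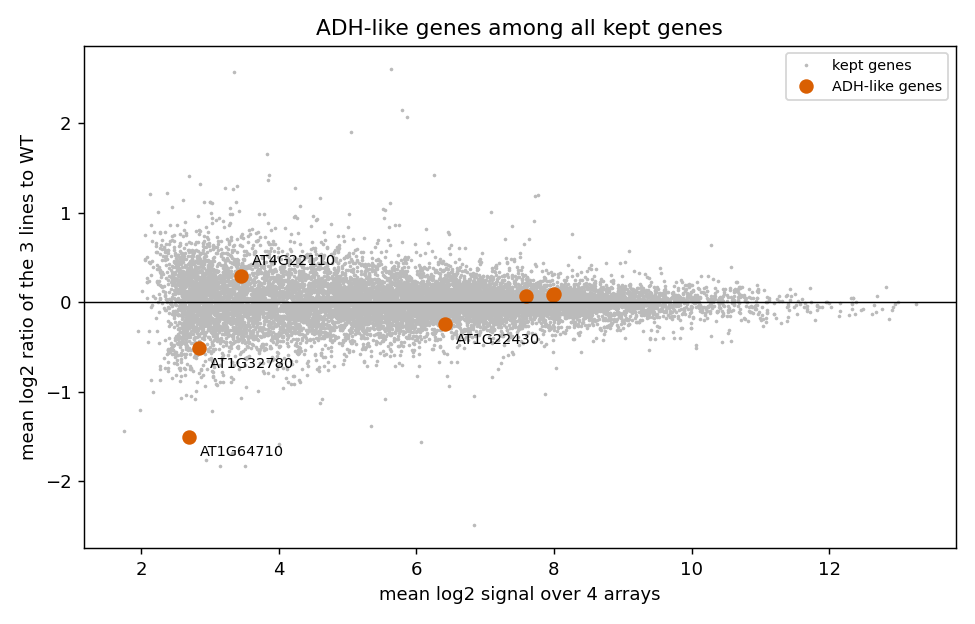
Mean log2 ratio of the 3 lines to WT (y axis) against the mean log2 signal over the 4 arrays (x axis) for the 13232 kept genes in grey and the 7 ADH-like genes in orange. AT1G64710 lies at -1.50 in the low-signal range where the grey points spread most, and the 3 genes with mean signals of 7.60 or above lie between 0.07 and 0.09.

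Pathways that meet the alcohol dehydrogenases were read from fixed lists, with the same shares of all kept genes as background. Of 7 genes listed for ethanol and lactate fermentation, alanine aminotransferase genes among them, 5 could be read and reached the filter value. Of these, 4 lay below WT in all 3 lines, beside 24.2% of all kept genes. The 1 that did not was AlaAT1, an alanine aminotransferase gene. The median mean log2 ratio of the 5 was -0.27. Their medians were -0.16 on the array labelled CEPD1ox, -0.19 for CEPD2ox and -0.42 for CEPDL2ox. Only 1 passed 2-fold, and in CEPDL2ox alone, where 0.491% of all kept genes were 2-fold lower. This was AT5G01320, a pyruvate decarboxylase gene, with log2 signals of 3.20, 2.77 and 2.53 in the lines, in the order CEPD1ox, CEPD2ox and CEPDL2ox, against 3.67 in WT. Its signals in CEPD2ox and CEPDL2ox lay under the filter value. All genes of the list were compared with the same 1 WT array. Probes shared between the pyruvate decarboxylase genes were not examined.

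The other fermentation genes, all above the filter value on every array, differed less. PDC2 (AT5G54960), a pyruvate decarboxylase gene, had log2 signals of 6.15, 6.06 and 5.90 in the same lines, against 6.32 in WT. AT4G17260, which encodes lactate dehydrogenase, had 8.04, 7.94 and 7.59, against 8.13 in WT. In both genes CEPDL2ox was the lowest array, at log2 ratios of -0.42 and -0.54. PDC3 had a mean log2 ratio of -0.21 ± 0.10, and AlaAT1, an alanine aminotransferase that also draws on pyruvate, one of 0.06 ± 0.09 (SD over the 3 lines).

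Core hypoxia genes are those that low oxygen induces across plant organs and cell types, ADH1 among them. Of 50 others, 24 could be read and 23 were kept. Their median mean log2 ratio was 0.06, with 6 above WT in all 3 lines and 3 below, beside 24.3% and 24.2% of all kept genes. The median was 0.01 without the array labelled CEPD1ox and 0.21 without CEPDL2ox. Taken singly, the array labelled CEPD1ox gave a median of 0.13, CEPD2ox one of 0.06 and CEPDL2ox one of -0.05. AT5G10040 alone passed 2-fold, on the array labelled CEPD1ox, with log2 signals of 7.26 there, 6.58 for CEPD2ox and 6.76 for CEPDL2ox, against 6.25 in WT. Of all kept genes, 0.733% were 2-fold higher on the array labelled CEPD1ox. AT1G74940 was furthest below WT, at a mean log2 ratio of -0.49 ± 0.17, and AT2G17850, a rhodanese-like gene, was at 0.34 ± 0.45 (SD over the 3 lines). PDC2 and AlaAT1 stand in this list as well as among the fermentation genes.

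**Figure D4:**
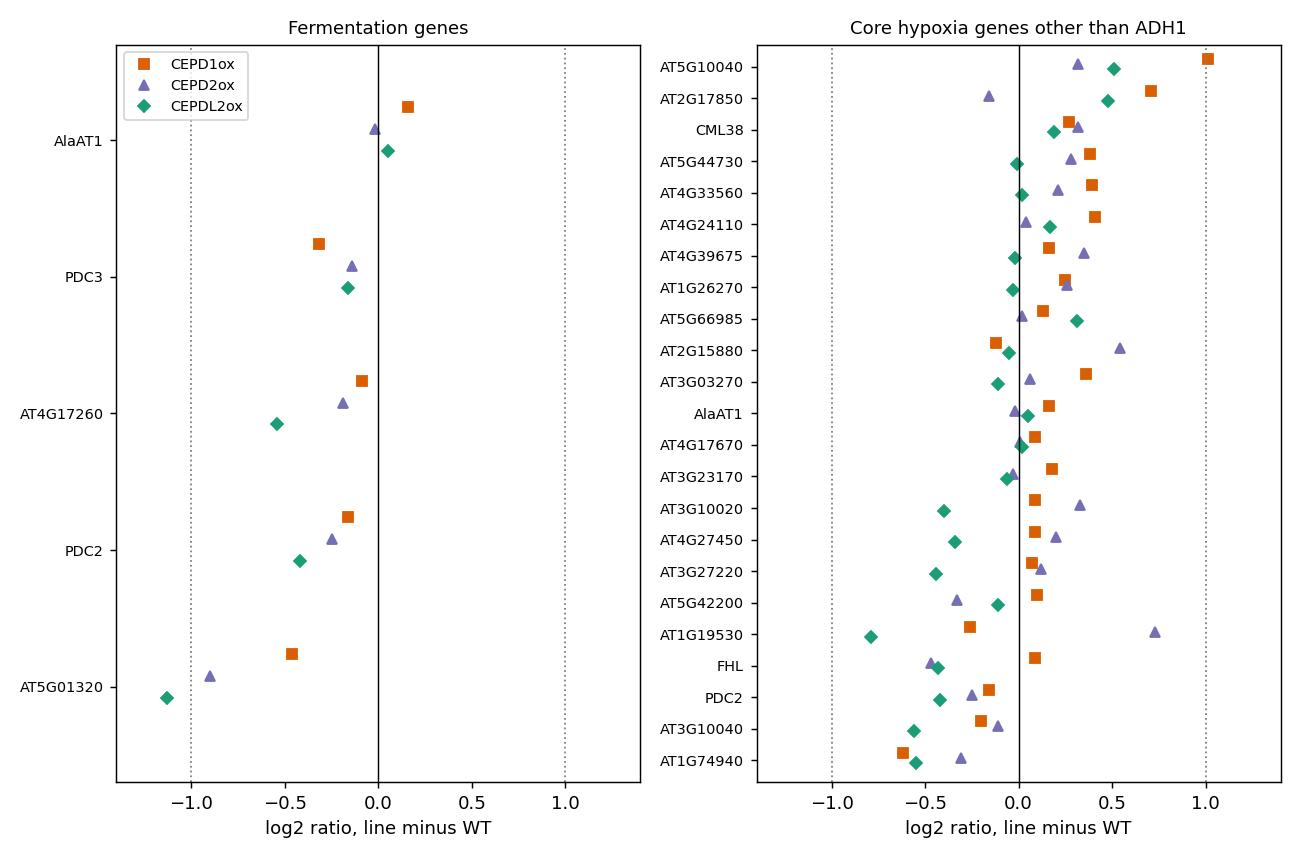
Log2 ratio of each line to WT (x axis) for the 5 fermentation genes (left) and the 23 core hypoxia genes other than ADH1 (right) that passed the filter, 1 point per line, with dotted lines at 2-fold. In the fermentation list 4 genes lie left of 0 in every line, while the hypoxia genes lie on both sides with a median of 0.06.

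Other neighbouring pathways had few readable genes, and none of these passed 2-fold in any line. Per line, 0.393% to 0.491% of all kept genes were 2-fold lower and 0.506% to 0.771% higher, so nothing is read from this. Of 5 genes that use acetaldehyde or acetate, ALDH2C4, an aldehyde dehydrogenase gene, had a mean log2 ratio of -0.04 and ACS, for acetyl-CoA synthetase, one of 0.08. Of 10 genes of formaldehyde oxidation and glutathione or nitric oxide turnover, FDH, for formate dehydrogenase, was at -0.08 ± 0.33 and THFS, for formyltetrahydrofolate synthetase, at 0.11 ± 0.14 (SD over the 3 lines). Of 15 oxygen-sensing genes, AT3G10040 was read, at -0.29 ± 0.24, and it stands among the core hypoxia genes above as well. Of 11 cinnamyl alcohol dehydrogenases and other zinc dehydrogenases, AT5G51970, a sorbitol dehydrogenase gene, was at 0.08 and AT5G63620 at -0.05. The other members of these lists were not analysed here.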

How the data were processed

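Root RNA, 100 ng per array, was measured on 4 arrays. The deposited values are log2 signals per array row. Per the submitters' processing notes, the authors used Affymetrix Expression Console 1.3. How it summarized and normalized the probes is not stated there, and the log base was inferred from values between 0.431 and 13.8. Values were used as deposited. Platform annotation named 1 gene for 16722 of 38408 rows, and 16574 matched the TAIR10.1 table by gene ID, used for names and gene order only. For 148 genes with more than 1 row, the row with the highest mean was taken. No genome build is given, so no coordinates are reported.

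Genes below the 25th percentile (2.78) on all arrays were left out (3316). A call was a 2-fold difference from WT. Named were all readable members, list genes past 2-fold and, per list, the 3 with the largest absolute mean log2 ratio. Also named were the 5 nearest patterns to members past 2-fold, and PDC3 and AlaAT1 to complete the fermentation list. Members and lists were chosen with earlier results of these data known. The counting of calls and the ranking of patterns were tested on simulated data. The simulated shifts were larger than the call threshold and the noise was equal for all genes. That checks the computation only, and not the error of calls on these arrays. Alternatives were thresholds of 1.5- and 3-fold, other filters, other normalizations, mean over rows and leaving out each line. Computations used Python 3.11.15, numpy 2.4.6, pandas 2.3.3 and R 4.3.3 with limma 3.58.1. Precision is limited by the number of arrays.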

Additional observations from a re-analysis of the deposited data

Results flagged for a closer look

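AT1G22430 lay above WT in CEPD2ox and below it on the array labelled CEPD1ox, with a log2 difference of 0.91 between those lines. AT1G22440 lay above WT in CEPDL2ox and marginally below it on the array labelled CEPD1ox, with a difference of 0.24. With the arrays shifted to the same median, AT1G22440 lay above WT on that array too, by 0.01. Both are listed because 2 lines differ from WT in opposite directions. Each line is 1 array, so neither difference was tested.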

How the results depend on the processing

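AT1G64710 stayed below WT in every line under each alternative run. It was chosen for this difference and every run used the same WT array, so its staying below WT supports nothing. When each line was left out in turn, its mean log2 ratio was between -1.57 and -1.44. By the same omissions, the means ran from -0.50 to -0.04 for AT1G22430 and from 0.16 to 0.44 for AT4G22110. For AT1G22440 they were 0.03 to 0.15, for AT5G42250 0.03 to 0.10, for AT5G24760 0.07 to 0.09 and for AT1G32780 -0.52 to -0.49. The core hypoxia median ran from 0.01 to 0.21. The call of AT1G64710 is limited by signal: with the filter at the median of all gene values it was not kept, and 0 members were lower in each line. At 3-fold, 0 members were lower in CEPDL2ox and 0 on the array labelled CEPD1ox, and at 1.5-fold 2 were lower on the array labelled CEPD1ox. AT1G22440 on the array labelled CEPD1ox moved to 0.01 from a deposited -0.04 with arrays shifted to the same median, so its opposite direction there depends on scaling. No scaling moved the median of all genes by more than 0.052. With the filter at the median, the shares of all genes past 2-fold higher were 0.196%, 0.15% and 0.495% in CEPD1ox, CEPD2ox and CEPDL2ox, and the shares lower were 0.196%, 0.138% and 0.104%. At 1.5-fold they were 3.93%, 3.3% and 3.28% higher, and 2.99%, 2.63% and 3.35% lower. At 3-fold they were 0.0756%, 0.0756% and 0.136% higher, and 0.0831%, 0.0605% and 0.0756% lower. These shifts follow from the thresholds. No paired analysis was possible because each genotype has 1 array. No pseudocount was varied, since the values were already logarithms.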
